A study of Mus musculus with 4 samples.

Results

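The 10 genes described here encode the granule proteases of connective tissue mast cells (Cpa3, Tpsb2, Tpsab1, Mcpt4 and Cma1), the receptors through which these cells grow and are triggered (Kit, Fcer1a, Ms4a2 and Mrgprb2) and their histamine-forming enzyme (Hdc). They were chosen by gene symbol, with earlier results of these data known. Each was found once among the 50593 genes measured by RNA sequencing of mouse sciatic nerve. The labels list 2 mice labelled HSF V30M and 2 labelled HSF WT, all of strain 129S1/SvImJ and 6 months old. Mice of both groups are described as lacking 1 of the 2 copies of Hsf1, the gene of heat shock factor 1. HSF V30M mice also carry a transgene for the V30M form of human transthyretin (TTR), which forms amyloid in human nerve, and their own Ttr gene is null. HSF WT mice carry no transgene. The promoter that drives the transgene is not given in the sources used here. The comparison addresses how the nerve transcriptome of this transthyretin amyloidosis model differs from that of its control.

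The authors pooled the libraries of each group into a single level per gene, in fragments per kilobase of transcript scaled to depth (FPKM). These levels hold no spread between mice, so no difference was tested here, and every fold below compares 1 pooled value with another. The authors' own test results in the table were not used. Hsf1 was at an FPKM of 7.94 in mice labelled HSF V30M against 15.0 in mice labelled HSF WT. This is 1.88-fold higher in HSF WT, although both groups are described as lacking 1 copy. Whether the groups hold the same number of Hsf1 copies was not tested. Mouse Ttr was at 6.10 in mice labelled HSF V30M, where it should be null, and is listed at 0 in mice labelled HSF WT, whose limit was 0.197 (3 fragments). Taken as mouse Ttr, these values go against the labels. The transgene is human, however, and reads of human and mouse transthyretin are not told apart in the table, so Ttr does not settle which mice a column holds. The labels are used as given, and each direction below rests on them. Defining markers of Schwann cells, the myelin-forming cells of nerve, were abundant in both groups, Mbp, which encodes myelin basic protein, being at 3854 in HSF V30M against 3441 in HSF WT. The total depth is not in the table, but low values fall on multiples of what 1 fragment is worth. In FPKM times kilobases, that worth was about 0.0389 and 0.0458 in the 2 HSF V30M libraries and 0.0479 and 0.0645 in the 2 HSF WT libraries. The number of fragments behind each value was estimated from it, and the 95% intervals below cover counting error only.

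Mast cells are long-lived immune cells of connective tissue, and in nerve they lie in the epineurium and endoneurium, often near vessels. They store tryptases, chymases, carboxypeptidase A3 and histamine in granules bound to proteoglycan. Antigen bound to immunoglobulin E (IgE) on their high-affinity receptor, or basic peptides acting on Mrgprb2, make them release these stores. KIT ligand, the growth factor that binds Kit, keeps them alive.

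All 5 proteases were lower in mice labelled HSF V30M, by 1.45-fold to 1.74-fold. Of the other 5 genes, Hdc, Kit and Ms4a2 were lower and Fcer1a and Mrgprb2 higher, and none of them was past the fold used here. In both groups Tpsb2 had the highest level, followed by Mcpt4, Cma1, Cpa3 and Tpsab1, the last pair lying close together. A gene was counted as past the fold where FPKM plus 1 differed by more than 1.5-fold and the mean FPKM of the groups was at least 1. Of the 10 genes, 7 reached that mean, and all 7 were lower in HSF V30M, beside 49.6% of all genes that reached it. Of these 7, 3 were past the fold, Cma1, Tpsb2 and Mcpt4, and none was past it in the other direction. The background was 8.44% lower and 8.22% higher past the fold, among the 15620 genes that reached a mean of 1. With a minimum mean of 5, 3 of 5 genes were lower past the fold, beside 6.33% of 10205 genes lower and 7.17% higher. On FPKM plus 1, the log2 ratio (HSF V30M over HSF WT) had a median of -0.42 over all 10 genes. Among genes with a mean of at least 1, the median was -0.53 over the 7 mast cell genes and 0.003 over the 15620 genes. In a bulk tissue, fewer mast cells and less of these RNAs in each mast cell cannot be told apart.

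**Figure D1:**
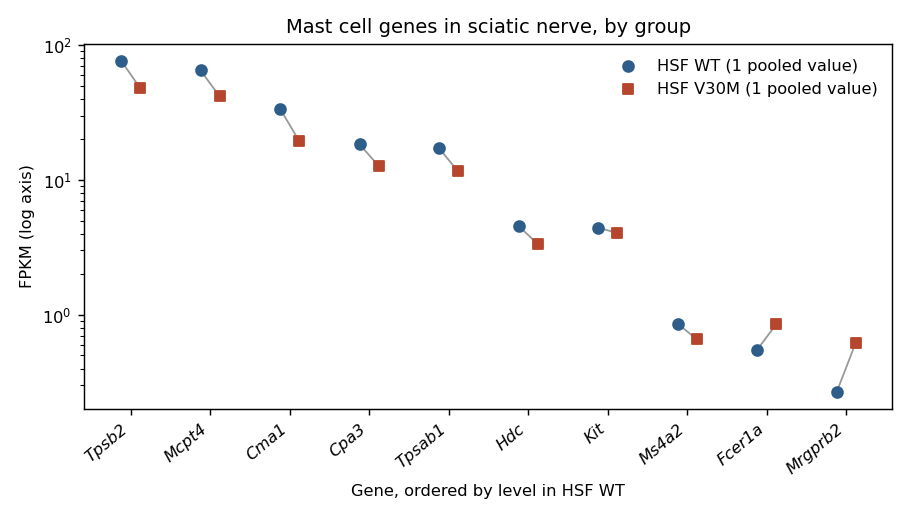
FPKM (log axis) of the 10 mast cell genes, ordered by their level in HSF WT, with 1 pooled value per group (circle, HSF WT, and square, HSF V30M) and a line joining the values of a gene. The 5 protease genes hold the highest levels and are lower in HSF V30M, while Fcer1a and Mrgprb2, below an FPKM of 1, are higher in HSF V30M.

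The tryptases are trypsin-like serine proteases that assemble into tetramers on heparin. Tpsb2 (ENSMUSG00000033825), which encodes the tryptase also called mMCP-6, lies on the plus strand at chr17:25366305-25369098 of GRCm38. Its FPKM was 48.1 in mice labelled HSF V30M against 76.7 in mice labelled HSF WT, which stand for about 769 to 1345 and 869 to 1742 fragments. Tpsb2 was thus 1.59-fold higher in HSF WT, with a counting interval from 1.45 to 1.76. Its neighbour Tpsab1 (ENSMUSG00000024173), for the tryptase mMCP-7, lies on the minus strand at chr17:25343245-25345562, and 20743 bases separate the genes. Tpsab1 had an FPKM of 11.6 in HSF V30M against 17.2 in HSF WT, a 1.48-fold difference with a counting interval from 1.24 to 1.78. Tpsb2 was 4.16 times as high as Tpsab1 in HSF V30M and 4.47 times in HSF WT, so the balance of the tryptases was nearly alike in both groups.

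The tryptase genes are paralogs, so the letters that tell their reads apart bear on how far each value is its own. Their coding sequences in GENCODE M21 were identical at 75.7% of 827 aligned bases, and the longest identical run was 39 bases. No stretch of 100 bases of the Tpsb2 coding sequence was found whole in Tpsab1. Shown are the 60-base stretches, each inside 1 exon, where the genes differ most (28 bases, in exon 3 of both) and least (3 bases, in exon 5 of both), with the differing bases in capitals. The first pair lies at chr17:25367047-25367106 (plus strand, Tpsb2) and chr17:25344856-25344915 (minus strand, Tpsab1), and the second at chr17:25367721-25367780 and chr17:25343485-25343544.
Tpsb2, most different: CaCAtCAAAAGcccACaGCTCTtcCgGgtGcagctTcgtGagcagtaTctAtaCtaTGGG
Tpsab1, most different: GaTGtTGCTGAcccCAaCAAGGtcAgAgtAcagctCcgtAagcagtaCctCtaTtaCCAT
Tpsb2, least different: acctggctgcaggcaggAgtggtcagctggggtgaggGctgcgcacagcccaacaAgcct
Tpsab1, least different: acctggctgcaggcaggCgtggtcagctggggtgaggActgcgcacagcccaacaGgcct
Short reads from the least different stretch can be placed on either gene with few mismatches, and how the authors' counting divided such reads was not tested.

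The chymases are serine proteases that, like the tryptases, are held in the granule by heparin. Cma1 (ENSMUSG00000022225), the chymase mMCP-5, lies on the minus strand at chr14:55941451-55944675. Its FPKM was 19.4 in mice labelled HSF V30M against 33.8 in mice labelled HSF WT, from about 371 to 444 and 457 to 627 fragments. This 1.74-fold difference was the largest among the 5 proteases, with a counting interval from 1.51 to 2, and 5.81% of the 15620 genes had a log2 ratio as low or lower. Mcpt4 (ENSMUSG00000061068), the chymase mMCP-4, lies in the same protease cluster at chr14:56059629-56062313, 114954 bases away. It had an FPKM of 41.7 in HSF V30M against 64.9 in HSF WT, a 1.56-fold difference with a counting interval from 1.42 to 1.71. The counting intervals of Cma1 and Mcpt4 overlap, and Mcpt4 was 2.14 times as high as Cma1 in HSF V30M and 1.92 times in HSF WT. Their coding sequences were identical at 67.6% of 732 aligned bases, with 27 bases as the longest identical run.

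Cpa3 (ENSMUSG00000001865) encodes carboxypeptidase A3, which trims the C-terminal ends of peptides such as snake venom toxins and whose storage is known to be tied to that of Cma1. It lies on the minus strand at chr3:20215620-20242181, with the microRNA gene Mir7007 inside it. Its FPKM was 12.7 in mice labelled HSF V30M against 18.4 in mice labelled HSF WT, from about 347 to 408 and 355 to 479 fragments. The difference was 1.45-fold, with a counting interval from 1.24 to 1.68, and did not pass the fold on FPKM plus 1. Summed, the 5 proteases reached an FPKM of 133.5 in HSF V30M against 210.9 in HSF WT, 1.58-fold higher in HSF WT. Their shares of that sum were nearly the same in both groups. Tpsb2 held 36.0% in HSF V30M and 36.4% in HSF WT, Mcpt4 31.2% and 30.8%, and Cma1 14.6% and 16.0%. Cpa3 held 9.52% and 8.71%, and Tpsab1 8.67% and 8.14%.

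**Figure D2:**
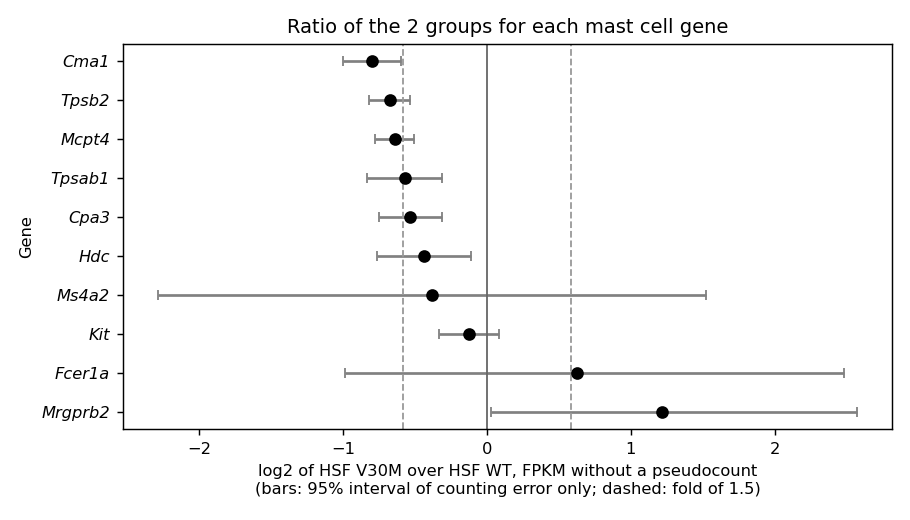
Log2 of the HSF V30M level divided by the HSF WT level for each of the 10 genes, from FPKM without a pseudocount, with bars for the 95% interval of counting error and dashed lines at a fold of 1.5. The intervals of the 5 proteases and Hdc lie below 0, that of Mrgprb2 lies just above it, and those of Kit, Ms4a2 and Fcer1a include it.

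Kit (ENSMUSG00000005672) encodes the receptor tyrosine kinase for KIT ligand and lies on the plus strand at chr5:75574916-75656722. Kit was at an FPKM of 4.05 in mice labelled HSF V30M against 4.42 in mice labelled HSF WT, from about 444 to 525 and 343 to 465 fragments. The ratio of HSF WT over HSF V30M was 1.09, with a counting interval from 0.944 to 1.26 that includes 1. This interval lies below those of Tpsb2, Mcpt4 and Cma1 and overlaps those of Cpa3 and Tpsab1. Tpsb2 was 11.9 times as high as Kit in HSF V30M and 17.4 times in HSF WT. Kit is also made by melanocytes, and the melanocyte markers were low in both groups. Of these 5 markers none had a mean of at least 1, and 3 were lower in HSF V30M and 1 higher. Their summed FPKM was 1.40 in HSF V30M against 1.33 in HSF WT, and Tyr, the enzyme of pigment synthesis, is listed at 0 in both. The part of melanocytes in the Kit values was not tested.

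Fcer1a and Ms4a2 encode the alpha chain, which binds IgE, and the beta chain of the high-affinity IgE receptor. Fcer1a (ENSMUSG00000005339, chr1:173221284-173227214) had an FPKM of 0.850 in HSF V30M against 0.551 in HSF WT, from about 12 to 17 and 5 to 9 fragments. It was 1.54-fold higher in HSF V30M, with a counting interval from 0.506 to 5.59. Ms4a2 (ENSMUSG00000024680, chr19:11615523-11623719) had 0.660 in HSF V30M against 0.860 in HSF WT, and its ratio of HSF WT over HSF V30M, 1.30, had a counting interval from 0.348 to 4.88. A difference in either receptor chain was not detectable at this depth, and a difference as large as that of the proteases lies within both intervals.

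Mrgprb2 (ENSMUSG00000050425, chr7:48550965-48558086) encodes the receptor by which basic peptides and some drugs trigger connective tissue mast cells without IgE. Its FPKM was 0.620 in mice labelled HSF V30M against 0.267 in mice labelled HSF WT, from about 25 to 30 and 8 to 10 fragments. Mrgprb2 was thus 2.32-fold higher in HSF V30M, opposite to the proteases, with a counting interval from 1.02 to 5.96 that reaches nearly to 1. Its mean FPKM of 0.444 was under the minimum, so it was not counted by the fold. The related receptor gene Mrgprb1 was at 1.15 in HSF V30M against 2.18 in HSF WT, lower in HSF V30M, on at least 6 and 8 fragments. The counting interval of its ratio of HSF WT over HSF V30M, from 0.576 to 6.62, includes 1. Mrgprb1 was not past the fold. Mrgprb1 and Mrgprb2 belong to a family of similar genes, so how reads were divided among them is uncertain.

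Hdc (ENSMUSG00000027360, chr2:126593667-126619299) encodes histidine decarboxylase, which makes histamine from histidine. It was at an FPKM of 3.36 in mice labelled HSF V30M against 4.55 in mice labelled HSF WT, from about 161 to 189 and 155 to 208 fragments. The 1.36-fold difference had a counting interval from 1.08 to 1.70 and did not pass the fold. Hdc is also made by basophils and by neutrophil precursors. None of 5 basophil markers reached a mean FPKM of 1. The basophil proteases Mcpt8 and Prss34 stood at no more than 2 fragments in either group and Il13 is listed at 0, while Cd200r3 was at 0.660 in HSF V30M against 0.793 in HSF WT and Il4 at 0.710 and 0.712. Neutrophil genes moved the other way from Hdc, with 7 of 8 markers higher in HSF V30M and a summed FPKM of 106.6 there against 31.0 in HSF WT. The part of those cells in the Hdc values was not tested.

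**Figure D3:**
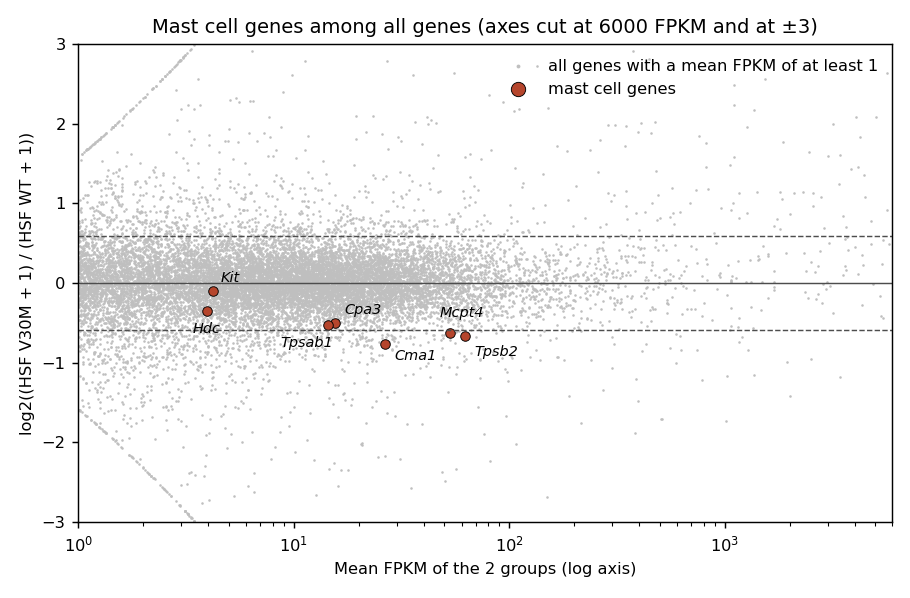
Log2 ratio on FPKM plus 1 against the mean FPKM of the groups (log axis) for genes with a mean of at least 1 (grey), with the 7 mast cell genes that reach that mean in red and dashed lines at a fold of 1.5. The 7 genes lie between -0.77 and -0.10, below the line of no difference, and Cma1, Tpsb2 and Mcpt4 lie under the lower dashed line.

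Mast cell genes are known targets of GATA factors, such as GATA2, and of MITF, which binds E-box letters. RefSeq promoter sequence of GRCm38.p6 was at hand for 8 of the 10 genes, all but Tpsb2 and Tpsab1, and the 250 bases before the annotated start were searched on both strands. The GATA letters AGATAA were found in Fcer1a, Cpa3 and Ms4a2 and in 10.3% of 27025 promoters of all genes. The GATA letters TGATAA were found in Mrgprb2 and Mcpt4 and in 8.16% of promoters. Either form was thus found in 5 of 8 members and in 17% of promoters. The E-box letters CATGTG were found in Fcer1a and in 12.2% of promoters. The palindromic E-box letters CACGTG were found in none of the 8 and in 6.05% of promoters. Cma1 holds none of the searched letters in this window, and other forms of the GATA letters were not searched in any gene. Shown are the 250 bases of 3 proteases, with and without such letters, and of both IgE receptor chains, 5′ to 3′ on the strand of the gene, with the matches in capitals. They lie at chr3:20242182-20242431 (Cpa3), chr14:56062311-56062560 (Mcpt4), chr14:55944676-55944925 (Cma1), chr1:173227230-173227479 (Fcer1a) and chr19:11623720-11623969 (Ms4a2), all on the minus strand.
Cpa3: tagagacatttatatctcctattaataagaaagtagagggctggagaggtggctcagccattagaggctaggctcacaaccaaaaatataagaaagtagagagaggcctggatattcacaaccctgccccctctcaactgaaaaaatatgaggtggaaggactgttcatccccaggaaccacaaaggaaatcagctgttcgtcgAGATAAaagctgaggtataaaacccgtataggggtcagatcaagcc
Mcpt4: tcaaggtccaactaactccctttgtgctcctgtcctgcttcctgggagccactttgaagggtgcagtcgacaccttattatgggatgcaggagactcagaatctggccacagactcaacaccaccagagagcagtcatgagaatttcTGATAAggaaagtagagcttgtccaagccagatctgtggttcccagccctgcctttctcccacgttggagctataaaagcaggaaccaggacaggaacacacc
Cma1: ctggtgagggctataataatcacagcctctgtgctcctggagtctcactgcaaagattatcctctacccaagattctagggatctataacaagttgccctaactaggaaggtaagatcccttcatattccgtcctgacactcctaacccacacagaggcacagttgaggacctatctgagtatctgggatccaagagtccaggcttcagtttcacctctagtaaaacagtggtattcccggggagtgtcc
Fcer1a: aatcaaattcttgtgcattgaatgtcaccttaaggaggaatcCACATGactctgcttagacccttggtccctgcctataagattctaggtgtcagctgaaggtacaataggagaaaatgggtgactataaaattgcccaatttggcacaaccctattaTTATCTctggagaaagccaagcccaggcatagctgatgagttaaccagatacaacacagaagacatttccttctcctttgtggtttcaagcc
Ms4a2: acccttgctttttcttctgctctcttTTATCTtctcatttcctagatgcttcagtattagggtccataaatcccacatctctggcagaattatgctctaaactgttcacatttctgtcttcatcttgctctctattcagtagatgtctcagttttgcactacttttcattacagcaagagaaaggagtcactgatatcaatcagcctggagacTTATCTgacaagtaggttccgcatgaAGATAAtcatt
The match in Cpa3 starts 46 bases before the annotated start and that in Mcpt4 103 bases before it. Ms4a2 holds 3 matches, which start 224, 37 and 11 bases before it.

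The other genes of the pathway were taken from 6 lists of 65 genes in all, also chosen with earlier results known. Of the 65, 43 had a mean FPKM of at least 1. Of these 43, 9 were lower past the fold in mice labelled HSF V30M (20.9%, beside 8.44% of all genes) and none was higher. Their median log2 ratio was -0.07, beside 0.003 over all 15620 genes, and the single values ran from -1.55 (Ighe) to 0.51 (Enpp3). The part of other cell types in the values of these genes was not tested.

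Among the other granule proteases, 1 of 9 reached the minimum. Tpsg1, which encodes the membrane-anchored gamma tryptase, was at 0.950 in HSF V30M against 2.02 in HSF WT, lower in HSF V30M by 2.12-fold with a counting interval from 0.967 to 4.83. The mucosal mast cell proteases Mcpt1 and Mcpt2 and the protease Mcpt9 are listed at 0 in both groups, where a count of 0 still allows 0.238, 0.225 and 0.108 FPKM in HSF WT. Among the proteases searched, a mean FPKM of at least 1 was thus reached by the 5 of connective tissue mast cells and by Tpsg1.

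The genes of granule storage and mediator synthesis were lower past the fold in 3 of 9 cases, beside 8.44% of all genes. Srgn, the proteoglycan core on which granule contents are packed, was at 66.7 in HSF V30M against 62.1 in HSF WT, and other blood cells make it too. Ltc4s, which makes leukotriene C4, was at 6.87 in HSF V30M against 12 in HSF WT. Its partner Alox5ap, which presents arachidonic acid to 5-lipoxygenase, was at 14.6 and 23.2. Tph1, the first enzyme of serotonin synthesis outside the brain, was at 1.04 in HSF V30M against 4.26 in HSF WT, lower by 4.09-fold with a counting interval from 1.85 to 9.96. Hpgds, which makes prostaglandin D2, was lower too, at 3.27 and 4.15, but not past the fold.

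Of 13 genes of IgE receptor signalling, 2 were lower past the fold, beside 8.44% of all genes, and none higher. These were the adaptors Lat, at 0.530 in HSF V30M against 1.83 in HSF WT, and Lat2, at 9.75 and 15.6. Lat rests on as few as 4 and 10 fragments, and the counting interval of its ratio, from 0.999 to 15.1, includes 1. The kinase Syk was at 7.57 and 11.8 and Fcer1g, the gamma chain that the IgE receptor shares with other Fc receptors, at 29.1 and 33.4, neither past the fold. Fyn, the kinase with the highest level in this list, was at 86.6 in HSF V30M against 75.2 in HSF WT.

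Of 13 genes of mast cell growth and lineage, 10 reached the minimum. Among these 10, 1 was lower past the fold, beside 8.44% of all genes. This was Il9r, the receptor of interleukin 9, at 0.280 in HSF V30M against 2.02 in HSF WT. Kitl, the ligand of Kit, was the highest of this list, at 34.9 in HSF V30M against 49.7 in HSF WT, a 1.42-fold difference that did not pass the fold. The transcription factor genes Gata2, at 7.14 and 5.50, and Mitf, at 13.1 and 14.9, were not past it either. Of 10 other surface and identity genes 5 reached the minimum and none was past the fold, and Cd63, a granule membrane protein of many cell types, was at 111.2 and 113.9.

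Of 11 histamine and protease response genes, 5 reached the minimum. Of these, 2 were lower past the fold, beside 8.44% of all genes, and none higher. Ighe, the constant region of the IgE heavy chain, was at 0.08 in HSF V30M against 2.16 in HSF WT. This rests on 2 to 3 fragments in HSF V30M and 39 to 57 in HSF WT, a ratio of 27.0 with a counting interval from 7 to 231. Agt, which encodes angiotensinogen, the precursor of a peptide that chymase can cleave, was at 1.58 in HSF V30M against 3.81 in HSF WT. The histamine receptor Hrh1, the highest of the list, was at 7.85 and 6.36.

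**Figure D4:**
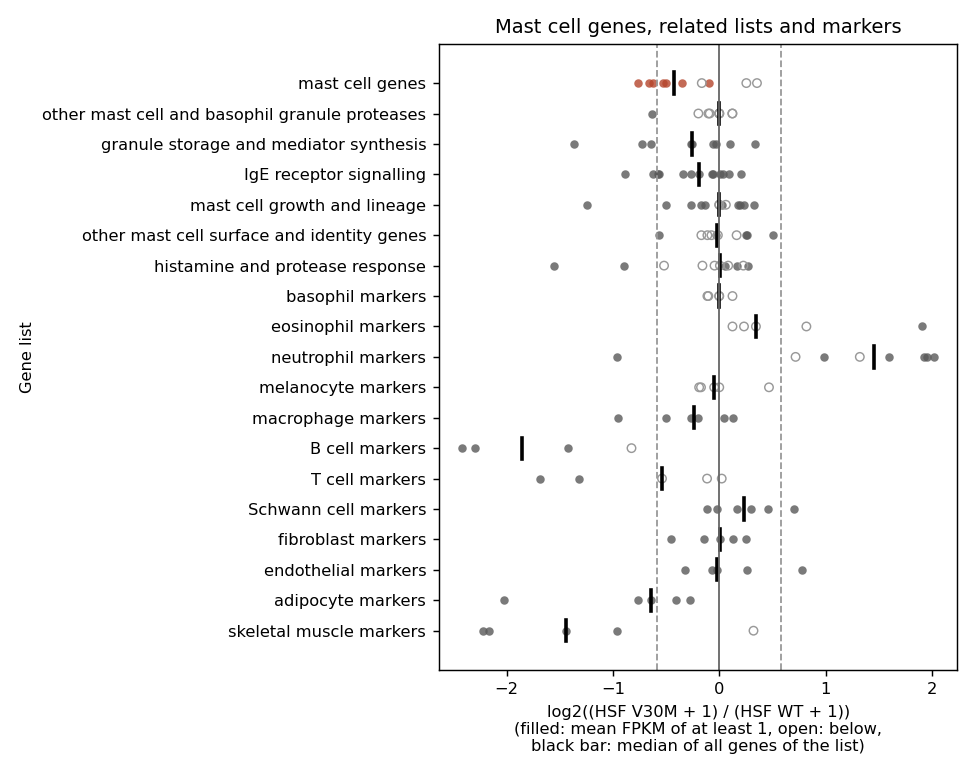
Log2 ratio on FPKM plus 1 for the 10 mast cell genes (red), 6 related lists and 12 lists of cell type markers, with 1 point per gene (filled for a mean FPKM of at least 1, open below), a black bar at the median of each list and dashed lines at a fold of 1.5. The mast cell median of -0.42 lies between the medians of the T cell (-0.54) and adipocyte (-0.64) lists on one side and those of the granule storage (-0.25) and macrophage (-0.23) lists on the other.

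Markers of other cell types differed between the groups in both directions. The counts past the fold below stand beside 8.44% of all genes lower past it and 8.22% higher. All 5 adipocyte markers were lower in HSF V30M, 3 of them past the fold (Adipoq, Fabp4 and Lep), and their summed FPKM was 1131 in HSF V30M against 1733 in HSF WT, 1.53-fold higher in HSF WT beside 1.58-fold for the proteases. Of 5 skeletal muscle markers, 4 were lower past the fold (Acta1, Ckm, Myh4 and Tnnt3), with sums of 31.6 and 109.2. All 4 B cell markers were lower, 3 past the fold (Cd79a, Cd79b and Pax5), with sums of 1.64 and 17.9. Pax5 rests on as few as 1 and 5 fragments, and the counting interval of its ratio, from 0.725 to 307, includes 1. Of 5 T cell markers, 2 were lower past the fold, Cd3e and Cd4, and the sums of the 5 were 1.73 and 7.64. Ighe is a gene of B cells, and T cells express Lat and Il9r. Of 6 macrophage markers, 4 were lower and 2, Adgre1 and Cd163, higher, and Cd68 alone was past the fold, at 15.5 in HSF V30M against 30.9 in HSF WT. Of 6 Schwann cell markers, 4 were higher in HSF V30M and S100b was past the fold. The 5 fibroblast markers had a median log2 ratio of 0.01, with Dcn at 1331 and 1320, and of the 5 endothelial markers 3 were lower and 2 higher, with a median of -0.02 and Cldn5 alone past the fold, higher in HSF V30M. The part of fat, muscle, lymphoid and nerve tissue amounts in the mast cell values was not tested.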

How the data were processed

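RNA from sciatic nerve was sequenced by the authors with Ion Torrent protocols. The authors deposited FPKM values, 1 per gene and group, made with STAR, Cufflinks and Cuffdiff on GRCm38 per the labels (versions and options not given in the sources used here). GRCm38 is the C57BL/6J genome and the mice are of strain 129. Columns were read by number, since the header is incomplete, with decimal commas turned to points. The table also holds the authors' log2 fold changes and test results, which were not used. The 23 genes whose alignments were too many for Cuffdiff to estimate were not used.

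Ratios were taken as log2((HSF V30M + 1) / (HSF WT + 1)). The worth of 1 fragment was read from genes with a single transcript of 300 to 1500 bases and a locus of their own, after taking 201 bases from the transcript length. The lower number of fragments takes the shortest coding transcript and the larger worth, the upper number the opposite, and intervals are 95% Clopper-Pearson intervals on the lower numbers. A limit at 0 is 3 fragments. In HSF V30M, values are rounded to 2 decimals, so its worths are less certain.

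The members and lists were chosen with earlier results of these data known. Genes named are the members, list genes past the fold, and the highest gene of each list, while Mcpt1, Mcpt2, Mcpt8, Mcpt9, Prss34, Cd200r3, Il4, Il13, Adgre1, Cd163, Enpp3, Mrgprb1, Hpgds, Syk, Fcer1g, Gata2, Mitf, Epx and Tyr were named after their values were seen. Genes left out of the B cell and Schwann cell lists are not reported here. Alternatives were a pseudocount of 0.1 or none, median-of-ratios scaling (factors 1.001 and 0.999), a fold over 2, and other minimum means. The steps were tested on simulated data. Positions are from GENCODE M21. The tools were scipy 1.17.1, Biopython 1.88, pandas 2.3.3, numpy 2.4.6 and matplotlib 3.10.9 in Python 3.11.15.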

Additional observations from a re-analysis of the deposited data

How the results depend on the processing

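No paired analysis was possible because Cuffdiff pooled the mice of each group. For the same reason leaving out each mouse in turn and the fits on values per mouse were not run.

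Of the 10 genes, 3 were lower past the fold as reported and 0 with a fold over 2, and the count was within 1.5 times of 3 with the other settings. Of the related lists, 9 genes were lower past the fold as reported, 3 with a fold over 2, and 3 with a minimum mean FPKM of 5. With a pseudocount of 0.1, 12 were lower and 1 was higher. Over all genes, 1319 were lower and 1284 higher as reported, 616 and 621 with a fold over 2, and 646 and 732 with a minimum mean of 5. With a pseudocount of 0.1, they were 1692 and 1703. These settings are stricter by construction, apart from the pseudocount, where low genes weigh more. All 30 recomputed ratios of single members, with a pseudocount of 0.1, with none, or with scaling, kept their direction. This is no check, since a pseudocount cannot change a direction and factors of 1.001 and 0.999 are too close to 1 to do so here. Each ratio also lay within the counting interval once this was put around the reported value, but ratios of low genes changed in size. The log2 ratio of Mrgprb2 was 0.35 as reported and 1.22 without a pseudocount. The settings without a pseudocount and with a minimum of 1 for the median were added after seeing the data. Depth limits Fcer1a, Ms4a2 and Mrgprb2, and the unknown spread between mice limits every value.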

Other observations

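Granule genes of eosinophils and most neutrophil markers stood on the opposite side from the mast cell proteases. Prg2, the major basic protein of eosinophil granules, was at an FPKM of 5.75 in mice labelled HSF V30M against 0.806 in mice labelled HSF WT, about 80 to 94 against 8 to 11 fragments, 7.13-fold higher with a counting interval from 3.45 to 17.1. Epx, the eosinophil peroxidase, was at 0.94 and 0.0996, 9.44-fold higher with an interval from 3.47 to 36.0. All 5 eosinophil markers were higher in HSF V30M, although only Prg2 had a mean of at least 1.

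Among the neutrophil markers, S100a9 was at 59.0 in HSF V30M against 13.8 in HSF WT, and Ngp at 14.4 and 2.96. The exception was Csf3r, the receptor of granulocyte colony-stimulating factor, which was lower in HSF V30M, at 2.63 against 6.05. Each of these is 1 pooled value per group, and no difference was tested.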
